A study of Rattus norvegicus with 12 samples.

Results

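Forkhead (Fox) transcription factors were followed across the 4 groups of the study, in rat cardiac fibroblasts and in cells made from them. The members were the rows of the gene table whose name is Fox followed by a letter and a number. This gave 39 of the 32545 genes in the table, of which 35 had at least 1 count and 23 had enough counts to be tested. The remaining 4 (Foxi1, Foxi2, Foxi3 and Foxr1) had 0 counts in all 12 libraries.

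The study introduced Sall4, a factor of embryonic stem and germ cells, and Gata4, which acts in heart and endoderm, into these fibroblasts with viruses. RCF are the parental rat cardiac fibroblasts, labelled as wild type, not treated and controls, although the protocol label on treatment names the viral genes for all 12 samples. GS are the immortalized cells that carry viral Sall4 and Gata4, kept undifferentiated. GS_diff1 are GS cells under CMM medium, which the labels call cardiomyocyte differentiation, and GS_diff2 are GS cells under CMM medium with EGM2 solution, which they call cardiomyocyte and endothelial differentiation. All 4 groups share the heart as source and culture as primary cells, and all 3 GS groups carry both viral genes and the immortalized state. Strain, age, the viral promoter, the number of clones and the times in each medium are not stated in the labels. No GS culture is described as matched to the differentiated ones for time in culture, so medium and time cannot be told apart.

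Each group held 3 libraries, which the design text calls biological replicates, with 16255682 to 23117864 counts per library. Levels below are counts-per-million (CPM) after TMM scaling, and a gene is called where the adjusted p of edgeR's quasi-likelihood test was under 0.05. Sall4 had 0 counts in all 3 RCF libraries, 238 to 255 CPM in GS, 222 to 231 CPM in GS_diff1 and 67.5 to 72.4 CPM in GS_diff2. Gata4 was present in RCF, at 203 to 210 CPM. It was at 589 to 603 CPM in GS, 487 to 500 in GS_diff1 and 281 to 289 in GS_diff2. All 10 listed fibroblast markers had counts in RCF, GS and GS_diff1 and 9 in GS_diff2, where Tcf21 was at 0. A mean of 1 CPM was reached by 10, 9, 8 and 8 of them in RCF, GS, GS_diff1 and GS_diff2. Tcf21 was at 18.5, 0.395, 0.0831 and 0 CPM in that order, and Dcn at 32.8, 1, 0.0703 and 0.419. Leukocyte markers summed to 107 to 113 CPM in RCF and 16.5 to 34 CPM in the other groups. Outside RCF most of that sum was Cd14, with means of 29.4 CPM (GS_diff2), 23.2 CPM (GS) and 14.1 CPM (GS_diff1), beside 17.3 CPM in RCF. Lyz2, at a mean of 55.8 CPM in RCF, was at most 0.348 CPM elsewhere, and Adgre1 went from 14.3 CPM to 0. Of the 10 leukocyte markers, 8 reached a mean of 1 CPM in RCF, against 3 (GS_diff1), 2 (GS_diff2) and 1 (GS). Epithelial and mesothelial markers summed to 43.7 to 46.4 CPM in RCF, 631 to 652 CPM in GS, 2270 to 2290 CPM in GS_diff1 and 803 to 822 CPM in GS_diff2. Cardiomyocyte markers summed to at most 37.9 CPM and endothelial markers to at most 28.6 CPM in any library.

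Forkhead proteins bind DNA through a winged helix domain, and several can open closed chromatin. FOXA factors prepare endoderm and liver enhancers, FOXO factors are kept out of the nucleus by insulin and AKT signalling, FOXM1 drives the genes of mitosis, and FOXC, FOXF and FOXS factors act in mesenchyme and the cells around vessels. In the heart, FOXC1 and FOXC2 take part in forming the outflow tract, FOXP1 acts in the growing myocardium, and FOXO1 and FOXO3 restrain muscle growth.

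Promoters are shown for Foxa2, Foxc1 and Foxo1, which were over 2-fold higher in GS than in RCF. Foxq1, which lies near Foxc1, and Foxp1, the single member whose entry held a forkhead site, are shown as well. The sequences are the 250 bases before the RefSeq start of each gene on the GRCr8 assembly, 5′ to 3′ on the gene's strand, whereas positions in the count table are given on Rnor_6.0. RefSeq entries were found for 24 of the 39 members, and Foxm1 and Foxs1 were not among them. 4 motifs were searched on both strands: forkhead GTAAACA, the GATA factor site AGATAA, the cell cycle homology region (CHR) TTTGAA and the GLI site GACCACCCA. Capitals mark a match, and a sequence without capitals held none of them. Foxq1 lies at chr17:33124088-33124337 on the minus strand, Foxc1 at chr17:32844101-32844350 on the minus strand, Foxa2 at chr3:155927509-155927758 on the minus strand (the count table, on its own build, has it on the plus strand), Foxo1 at chr2:138462724-138462973 on the plus strand and Foxp1 at chr4:133353281-133353530 on the minus strand.
Foxq1: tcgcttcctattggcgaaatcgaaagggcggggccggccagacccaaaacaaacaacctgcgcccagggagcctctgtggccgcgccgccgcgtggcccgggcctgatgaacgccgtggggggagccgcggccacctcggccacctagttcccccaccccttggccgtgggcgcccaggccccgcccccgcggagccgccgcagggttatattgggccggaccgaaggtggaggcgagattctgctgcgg
Foxc1: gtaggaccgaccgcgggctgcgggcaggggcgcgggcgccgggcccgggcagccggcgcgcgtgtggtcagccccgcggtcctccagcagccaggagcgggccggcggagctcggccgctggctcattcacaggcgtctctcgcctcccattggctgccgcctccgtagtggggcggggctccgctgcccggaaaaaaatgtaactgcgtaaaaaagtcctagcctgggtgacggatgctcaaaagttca
Foxa2: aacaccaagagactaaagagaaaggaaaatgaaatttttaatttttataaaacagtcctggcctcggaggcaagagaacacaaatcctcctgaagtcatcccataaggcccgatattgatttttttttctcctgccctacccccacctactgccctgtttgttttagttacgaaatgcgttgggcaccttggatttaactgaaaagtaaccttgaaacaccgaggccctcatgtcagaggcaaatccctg
Foxo1: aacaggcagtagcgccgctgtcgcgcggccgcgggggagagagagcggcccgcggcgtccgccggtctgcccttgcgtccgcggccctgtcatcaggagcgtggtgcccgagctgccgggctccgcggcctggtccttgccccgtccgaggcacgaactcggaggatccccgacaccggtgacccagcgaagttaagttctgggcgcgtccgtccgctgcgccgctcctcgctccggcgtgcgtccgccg
Foxp1: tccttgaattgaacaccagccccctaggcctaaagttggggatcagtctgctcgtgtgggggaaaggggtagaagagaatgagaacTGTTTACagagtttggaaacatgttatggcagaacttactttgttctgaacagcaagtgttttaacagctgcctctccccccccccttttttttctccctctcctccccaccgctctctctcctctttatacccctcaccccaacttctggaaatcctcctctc
The forkhead motif in Foxp1, which begins 164 bases before the start and is written there as its reverse complement, was 1 match among 27 promoter entries of members (3.7%), beside 3.21% of all 33469 entries. The GATA motif was in 0 of the 27 entries and in 10.3% of all, and the GLI motif was in 0 and in 0.338%. The CHR was in 1 entry of a member, that of Foxp3 (3.7%), beside 16.2% of all. Median GC content was 62% in the members' entries and 51.2% in all. Foxa2, at 42.8%, was below both, and Foxo1, at 74.4%, was above both.

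Forkhead RNA as a whole was lowest in RCF. The members summed to 697.9 ± 8.69, 1009 ± 15.4, 938.8 ± 15.6 and 843.1 ± 10.6 CPM in RCF, GS, GS_diff1 and GS_diff2 (mean ± SD, n = 3). The 16 members with the highest mean over the 12 libraries made up 98.6% to 99.3% of that sum in each group. Between 17 and 19 members reached a mean of 1 CPM in a group, and 15 or 16 reached 10 CPM. Because RNA was taken from whole cultures, fewer cells of a type and less RNA per cell cannot be told apart.

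Which members led depended on the group and on whether levels were divided by gene length. By CPM alone, Foxk2 led RCF, GS_diff1 and GS_diff2, at means of 106.9, 137.6 and 106.4. Foxj3 led GS by CPM at a mean of 116.4, where Foxs1 was at 59.04. Per kilobase of gene length, RCF was led by Foxk2 at 24.5 ± 0.758 CPM, Foxo3 at 21.6 ± 0.0881 and Foxp1 at 20.6 ± 0.824 (SD, n = 3). GS was led by Foxs1 at 46.6 ± 1.1, followed by Foxo3 at 32.8 ± 1.57, Foxp1 at 30.5 ± 1.25 and Foxa2 at 27.4 ± 0.86 CPM per kilobase. In GS_diff1 Foxa2 came first at 36.7 ± 1.27, then Foxk2 at 31.6 ± 0.741 and Foxp4 at 29.5 ± 0.46. In GS_diff2 the 3 Foxp1 libraries, at 34.5 ± 2.09, stood just above those of Foxo3, at 31.9 ± 0.213, ahead of Foxk2 at 24.4 ± 0.81 CPM per kilobase. Foxs1, the leader in GS per kilobase, was at 7.14 ± 1.1 CPM per kilobase in GS_diff1, below 13 other members.

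**Figure D1:**
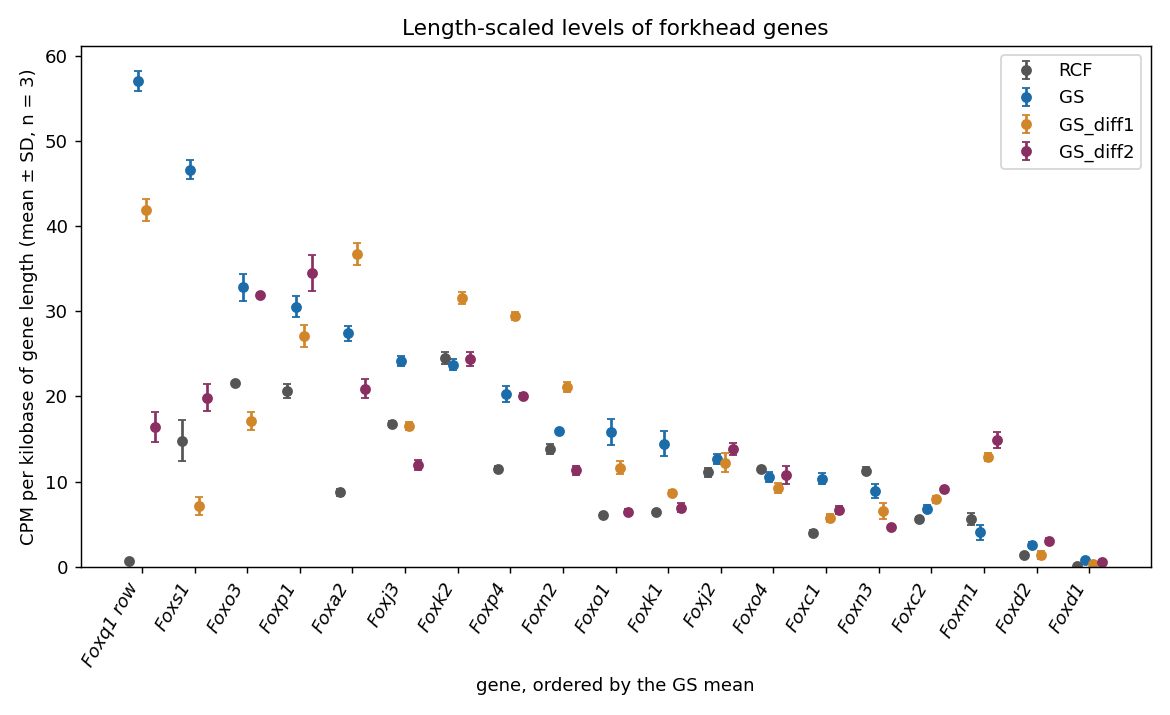
Mean CPM per kilobase of gene length in the 4 groups for the 18 members highest in GS and for the row described as FOXQ1 (points, mean; bars, SD; n = 3). The FOXQ1 row, at 57.1, and Foxs1, at 46.6, top the GS values, while Foxk2, at 24.5, tops the members in RCF.

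In GS against RCF, 18 of the 23 tested members were called (78.3%), beside 71.3% of all 14399 tested genes. Of these, 15 were higher in GS (35% of all genes were) and 3 were lower (36.3% of all genes were): Foxf1, Foxm1 and Foxn3. The members' median log2 difference was 0.57, and that of all tested genes was -0.03. A difference of at least 2-fold was called for 8 members (34.8%), beside 25.9% of all tested genes. Foxf1 passed the filter on low counts only through RCF, and Foxb1 only through GS_diff2, so calls that set those groups apart were partly fixed by the filter. Scaling by library totals alone lowered the log2 differences of all genes by 0.1 at the median and gave 13 members higher and 5 lower. Foxa3, Foxk2, Foxo4, Foxp2 and Foxp3 were not called.

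In GS_diff1 against GS the members moved mostly down. Again 18 were called (78.3%), beside 64.3% of all genes, with 6 higher (32% of all genes) and 12 lower (32.3% of all genes). The median was -0.44, beside 0 for all genes. In GS_diff2 against GS 13 were called (56.5%), beside 67% of all genes, with 4 higher (33.3% of all genes) and 9 lower (33.7% of all genes), and the median was -0.04. Scaling by library totals alone gave 7 higher and 9 lower in that comparison. Between the media, GS_diff2 against GS_diff1, 17 were called (73.9%), beside 63.7% of all genes, with 9 higher (32.1% of all genes) and 8 lower (31.5% of all genes). These comparisons share the GS or differentiated libraries, so their values are given side by side.

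Against GS, the members called higher were Foxa2, Foxc2, Foxk2, Foxm1, Foxn2 and Foxp4 in GS_diff1 and Foxb1, Foxc2, Foxm1 and Foxp1 in GS_diff2. The libraries of all 4 groups stood clear of each other for 8 members (34.8%), beside 24.8% of all tested genes: Foxa2, Foxc2, Foxk1, Foxm1, Foxn2, Foxn3, Foxp1 and Foxs1. The highest group was GS for 8 members (20.4% of all tested genes), GS_diff2 for 7 (23.2%), GS_diff1 for 5 (24.6%) and RCF for 3 (31.8%).

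**Figure D2:**
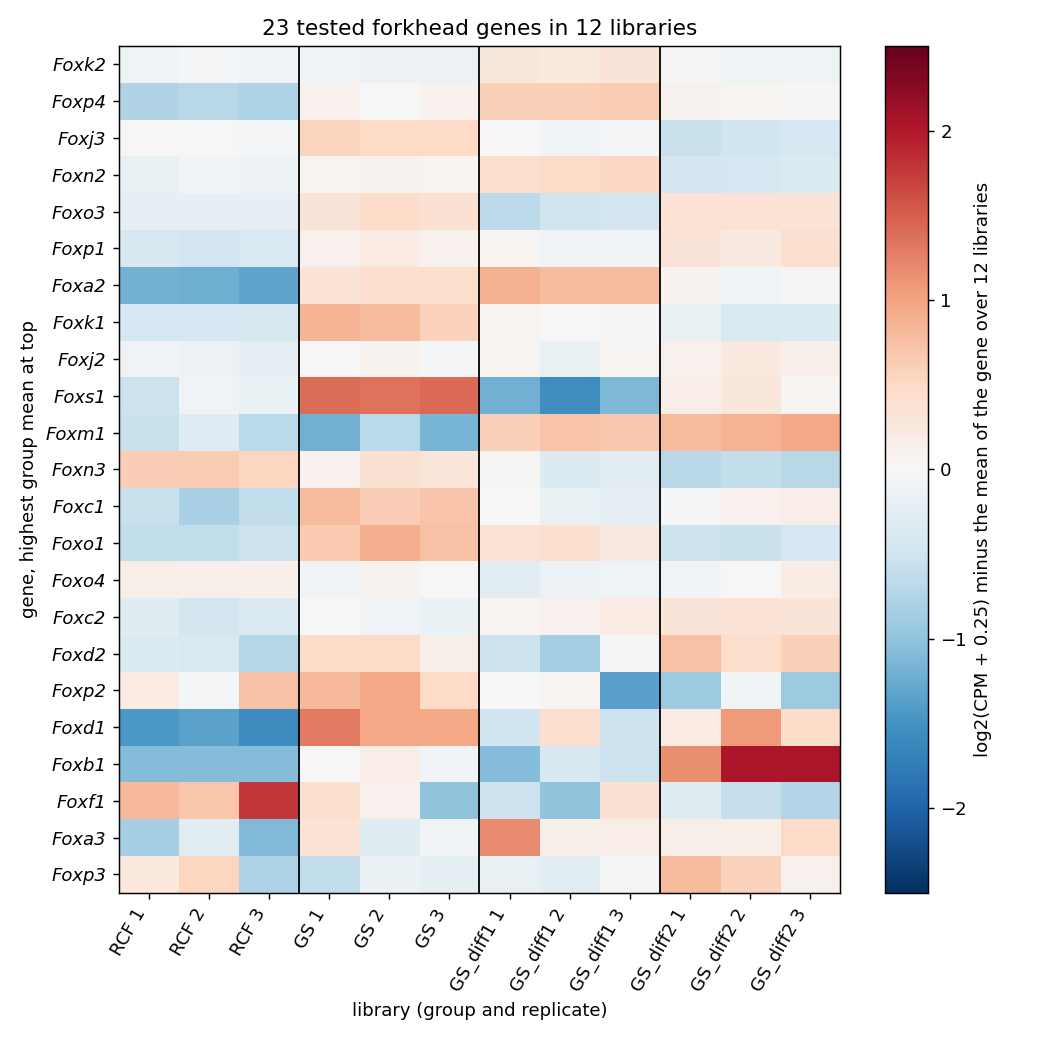
Levels of the 23 tested members in the 12 libraries, as log2(CPM + 0.25) minus the mean of the gene over all libraries (red, above; blue, below). Foxa2, Foxc1, Foxo1 and Foxs1 are blue in the RCF columns and red in the GS columns, while Foxm1 is blue in GS and red in both differentiated groups.

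**Figure D3:**
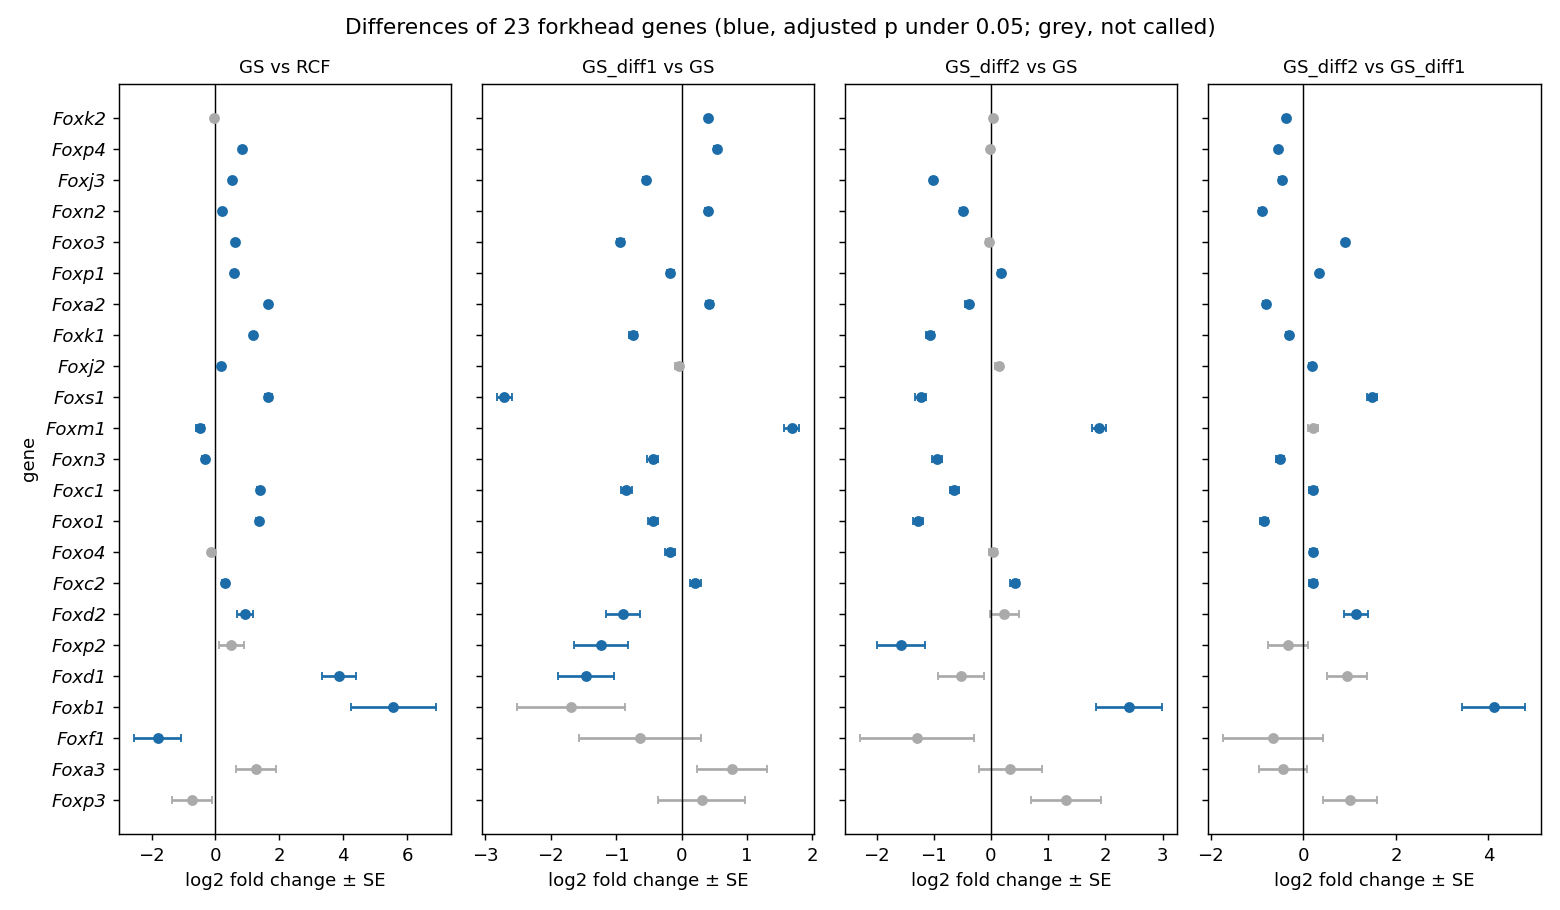
Log2 fold changes (points; bars, SE) of the 23 tested members in the 4 comparisons, with called members in blue and the others in grey; horizontal scales differ between panels. In GS vs RCF 15 blue points lie right of 0 and 3 left. The Foxb1 point there is a fitted value against a group with 0 counts.

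FOXA factors, the pioneer factors of endoderm, were represented by 1 abundant member. Foxa2 was at 20.3, 19.6 and 18.4 CPM in RCF, 58.7, 61.8 and 62.3 in GS, 84.9, 79.9 and 80.3 in GS_diff1 and 48.9, 43.8 and 46.9 in GS_diff2. Every GS library was above every RCF library, every GS_diff1 library above those of GS, and every GS_diff2 library below those of GS. Foxa2 was 3.13-fold higher in GS than in RCF (log2 1.65 ± 0.0629, adjusted p = 3.39e-20). It rose further in GS_diff1 (log2 0.42 ± 0.0569, adjusted p = 1.42e-07) and fell in GS_diff2 (log2 -0.39 ± 0.0584, adjusted p = 9.05e-07), and the media differed (log2 -0.81 ± 0.0575, adjusted p = 1.96e-13). Foxa2 lies at chr3:142383278-142387481 in the count table, with the gene AABR07054126.1, a long intergenic RNA, as its nearest row on the left. Foxa1, a close relative, had 0 counts in RCF, 4, 3 and 2 counts in GS, 10, 5 and 8 in GS_diff1 and 4, 3 and 1 in GS_diff2, and was not tested. Foxa3 was at 0.169, 0.359 and 0.0946 CPM in RCF, 0.688, 0.347 and 0.451 in GS, 1.43, 0.555 and 0.58 in GS_diff1 and 0.57, 0.569 and 0.783 in GS_diff2. These libraries overlapped in every comparison, and Foxa3, a liver factor, was not called in any. Without RCF replicate 2, Foxa3 was called higher in GS than in RCF (log2 1.87, adjusted p = 0.0315).

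Of the 24 genes listed as endoderm and liver genes downstream of FOXA, 9 were tested. All 9 were higher in GS than in RCF, beside 35% of all tested genes. The median log2 difference was 7.67 with the 4 genes at 0 in RCF (Hnf4a, Sox17, Krt18 and Cldn6) set against a floor of 3 counts per library. Such genes passed the filter only through the other groups, so this direction was partly fixed. Sox17, a factor of early endoderm, was at 0, 710 ± 12.9, 330.6 ± 2.79 and 282.3 ± 11 CPM in RCF, GS, GS_diff1 and GS_diff2, at least 5040-fold higher in GS. Hnf4a, a liver and gut factor, was at 0, 1.85 ± 0.699, 26.1 ± 0.575 and 3.16 ± 0.526 CPM in RCF, GS, GS_diff1 and GS_diff2. Hnf4a therefore followed the order of Foxa2 except that its GS_diff2 level was above that of GS (log2 0.79 ± 0.218, adjusted p = 0.00246). In GS_diff1 against GS 4 of the 9 were higher and 2 lower, beside 32% and 32.3% of all tested genes. In GS_diff2 against GS 3 were higher and 6 lower, beside 33.3% and 33.7%. The sum of the epithelial and mesothelial markers given above moved with Foxa2 from RCF to GS and GS_diff1, whereas in GS_diff2 it was above and Foxa2 below GS. Its members differed: the means of Wt1 and Upk3b were lower in GS than in RCF, Krt19 was at 25.4 CPM in GS and 20.3 in GS_diff1, and in GS_diff2 Krt18 and Krt19, at 149 and 7.41 CPM, were below their GS means. The part of these cells in the Foxa2 levels was not tested.

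FOXC factors pattern mesenchyme, vessels and the outflow tract. Foxc1 was at 17, 14.1 and 16.2 CPM in RCF, 43.7, 38.5 and 41.3 in GS, 25, 22.3 and 21.5 in GS_diff1 and 24.3, 26.9 and 28.1 in GS_diff2. GS was above all other groups, RCF below all, and the 2 differentiated groups overlapped. Foxc1 was 2.61-fold higher in GS than in RCF (log2 1.38 ± 0.0875, adjusted p = 1.03e-14) and fell in GS_diff1 (log2 -0.84 ± 0.0855, adjusted p = 5.98e-10) and GS_diff2 (log2 -0.64 ± 0.0845, adjusted p = 9.99e-08). Its call between the media (log2 0.21, adjusted p = 0.0395) was lost without GS_diff1 replicate 2 or 3 or GS_diff2 replicate 2 or 3, with adjusted p from 0.0978 to 0.158. Foxc2 was at 15.8, 14.1 and 15.1 CPM in RCF, 19.6, 18.4 and 17.4 in GS, 20.5, 21 and 22.7 in GS_diff1 and 24.5, 24.8 and 24.5 in GS_diff2. No 2 groups overlapped, and the levels stood in the order RCF, GS, GS_diff1 and GS_diff2. The steps were small: Foxc2 was 1.23-fold higher in GS than in RCF (log2 0.3 ± 0.0885, adjusted p = 0.00349) and 1.33-fold higher in GS_diff2 than in GS (log2 0.41 ± 0.0866, adjusted p = 0.000122). The steps from GS to GS_diff1 (adjusted p = 0.0361) and from GS_diff1 to GS_diff2 (adjusted p = 0.0414) were each lost without 1 library. That holds for GS replicate 2 or 3 or GS_diff1 replicate 3 in the first step, with adjusted p from 0.0613 to 0.143, and the step was also lost with DESeq2, no filter or a fit to these 2 groups alone (0.0509 to 0.0556). In the second step it holds for GS_diff1 replicate 1 or 2 or any GS_diff2 replicate, with adjusted p from 0.0708 to 0.129, and also for a fit with no filter (0.087).

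Foxc1 and Foxq1 lie near each other on chromosome 17, and Foxf1, Foxc2 and Foxl1 on chromosome 19. No row carries the name Foxq1. The row AABR07027496.1 at chr17:34224818-34226453, 273333 bases from Foxc1, is described in the table as the FOXQ1 protein and typed as a pseudogene, and lies outside the naming rule. The FOXQ1 row was at 0.633, 1.23 and 1.18 CPM in RCF, 91.3, 92.8 and 95.1 in GS, 69.7, 69.5 and 65.8 in GS_diff1 and 28.4, 28.4 and 23.5 in GS_diff2. RCF was lowest and GS highest, with no overlap between any of the 4 groups. It was 92.7-fold higher in GS than in RCF (log2 6.54 ± 0.117, adjusted p = 9.73e-28). It fell in GS_diff1 (log2 -0.44 ± 0.0692, adjusted p = 2.2e-06) and in GS_diff2 (log2 -1.8 ± 0.0739, adjusted p = 1.03e-18). FOXQ1 is a factor of hair follicle, stomach and epithelial cells. Foxc1 and the FOXQ1 row were both highest in GS and both lower under either medium. Other rows lie closer to Foxc1: Gmds at 9421 bases and, on the side of the FOXQ1 row, the miRNA AABR07027494.1 at 204107 bases. Gmds was at 14.7 ± 1.05, 14.4 ± 1.15, 21 ± 1.06 and 16.3 ± 0.826 CPM in RCF, GS, GS_diff1 and GS_diff2. AABR07027494.1 was at 0.0781 ± 0.0282, 0.959 ± 0.566, 0.347 ± 0.157 and 0.524 ± 0.27 CPM in that order.

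On chromosome 19 the 3 members lie within 44439 bases. Foxf1 was at 0.633, 0.565 and 1.47 CPM in RCF, 0.413, 0.289 and 0 in GS, 0.0951, 0 and 0.406 in GS_diff1 and 0.156, 0.0876 and 0.0522 in GS_diff2. Foxf1, a hedgehog-responsive factor of lung and gut mesenchyme, had 57 counts in all RCF libraries together and 14 in GS. That is a ratio of 0.289 for GS to RCF (95% counting interval 0.149 to 0.526), and the fitted difference was called (log2 -1.81 ± 0.741, adjusted p = 0.0309). Foxf1 reached the filter's level in RCF only, so this direction was partly fixed. The call was lost without RCF replicate 3 (adjusted p = 0.204), GS replicate 2 (0.0592) or GS replicate 3 (0.126), and with a replicate block (0.0621). Foxl1, a factor of gut mesenchyme, had 8, 8 and 0 counts in RCF, 5, 5 and 8 in GS, 5, 4 and 4 in GS_diff1 and 1, 11 and 16 in GS_diff2. It was not tested, and its libraries overlapped between all groups. Foxc2, between them, was thus the only member of this cluster above 2 CPM in any library. Mthfsd, a gene that lies between Foxf1 and Foxc2, was at 8.74 ± 1.47, 7.66 ± 0.679, 6.94 ± 0.206 and 5.76 ± 1.23 CPM in RCF, GS, GS_diff1 and GS_diff2.

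Foxs1, a factor of pericytes and of cells of the neural crest, showed the largest drop among members in GS_diff1. Foxs1 was at 15.3, 21.1 and 19.8 CPM in RCF, 59.2, 57.6 and 60.3 in GS, 9.56, 7.46 and 10.1 in GS_diff1 and 25.1, 27.1 and 23.2 in GS_diff2. GS was the highest group and GS_diff1 the lowest, and RCF and GS_diff2 lay between them without overlap. It was 3.16-fold higher in GS than in RCF (log2 1.66 ± 0.103, adjusted p = 8.53e-13), 6.54-fold lower in GS_diff1 than in GS (log2 -2.71 ± 0.112, adjusted p = 4.56e-16) and 2.34-fold lower in GS_diff2 than in GS (log2 -1.23 ± 0.101, adjusted p = 1.72e-10). GS_diff2 was 2.79-fold above GS_diff1 (log2 1.48 ± 0.114, adjusted p = 5.91e-11). The 8 smooth muscle and pericyte markers summed to 775 to 797 CPM in RCF and 650 to 675 in GS. Their sum was 2210 to 2260 CPM in GS_diff1 and 502 to 554 in GS_diff2. The contractile genes Acta2 and Tagln were at 198 and 516 CPM in RCF, 88.4 and 314 in GS and 961 and 1110 in GS_diff1. In GS_diff2 they were at 9.85 and 124 CPM, and Cspg4 was the largest part of the sum. Of the pericyte markers, Rgs5 was at 0 in all 3 GS groups. Cspg4 was at 38.7, 228, 147 and 302 CPM, Abcc9 at 11.9, 19.3, 0.604 and 73.4, and Kcnj8 at 15.1, 1.86, 0.158 and 15.4 in RCF, GS, GS_diff1 and GS_diff2. The means of Cspg4, Abcc9 and Kcnj8 were thus lower in GS_diff1 than in GS, as that of Foxs1 was, but above GS in GS_diff2. The part of these cells in the Foxs1 levels was not tested.

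FOXD factors were low. Foxd1 was at 0.127, 0.154 and 0.0946 CPM in RCF, 2.25, 1.74 and 1.74 in GS, 0.476, 1.11 and 0.464 in GS_diff1 and 0.933, 1.88 and 1.15 in GS_diff2. Foxd1, a factor of kidney stroma, rested on 3, 3 and 2 counts in RCF and 106 counts in GS. The ratio of GS to RCF was 15.6 (95% counting interval 7.64 to 37.1), and the difference was called (log2 3.88 ± 0.531, adjusted p = 1.65e-07). In GS_diff1 it fell to a ratio of 0.355 against GS (95% counting interval 0.24 to 0.515, adjusted p = 0.00359), and GS_diff2 was not called against GS (adjusted p = 0.256). Foxd2 was at 2.2, 2.15 and 1.66 CPM in RCF, 4.04, 4.11 and 3.22 in GS, 1.9, 1.46 and 2.78 in GS_diff1 and 4.93, 3.98 and 4.49 in GS_diff2. Foxd2, a related mesenchymal factor, was higher in GS than in RCF (log2 0.92 ± 0.258, adjusted p = 0.00226), lower in GS_diff1 than in GS (log2 -0.89 ± 0.259, adjusted p = 0.00353) and higher in GS_diff2 than in GS_diff1 (log2 1.13 ± 0.258, adjusted p = 0.00034). Its GS and GS_diff2 libraries overlapped. Foxb1 was at 0, 0 and 0 CPM in RCF, 0.275, 0.347 and 0.258 in GS, 0, 0.151 and 0.116 in GS_diff1 and 0.933, 1.93 and 1.93 in GS_diff2. Foxb1, a factor of the developing brain, had 0 counts in RCF and 16 in GS, at least 2.08-fold higher against a floor of 3 counts per library. GS_diff2, with 99 counts, stood 5.52-fold above GS (95% counting interval 3.23 to 10, adjusted p = 0.000547) and 18.8-fold above GS_diff1 (7.78 to 59.1, adjusted p = 7.07e-06). Foxb1 reached the filter's level in GS_diff2 only, so a difference from the other groups was partly fixed.

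Foxc1, Foxc2, Foxd1, Foxd2 and Foxs1 share a gene structure without introns. Among members 11 rows had a gene length equal to their span on the chromosome. Of the 23 tested members 5 were of this kind, beside 6.58% of all tested genes. All 5 were higher in GS than in RCF, beside 15 of the 23 tested members and 35% of all tested genes. The share among all tested genes without introns was not computed. In GS_diff1 against GS, Foxc1, Foxd1, Foxd2 and Foxs1 were lower and Foxc2 higher. Of the 23 tested members 12 were lower and 6 higher there, beside 32.3% and 32% of all tested genes.

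**Figure D4:**
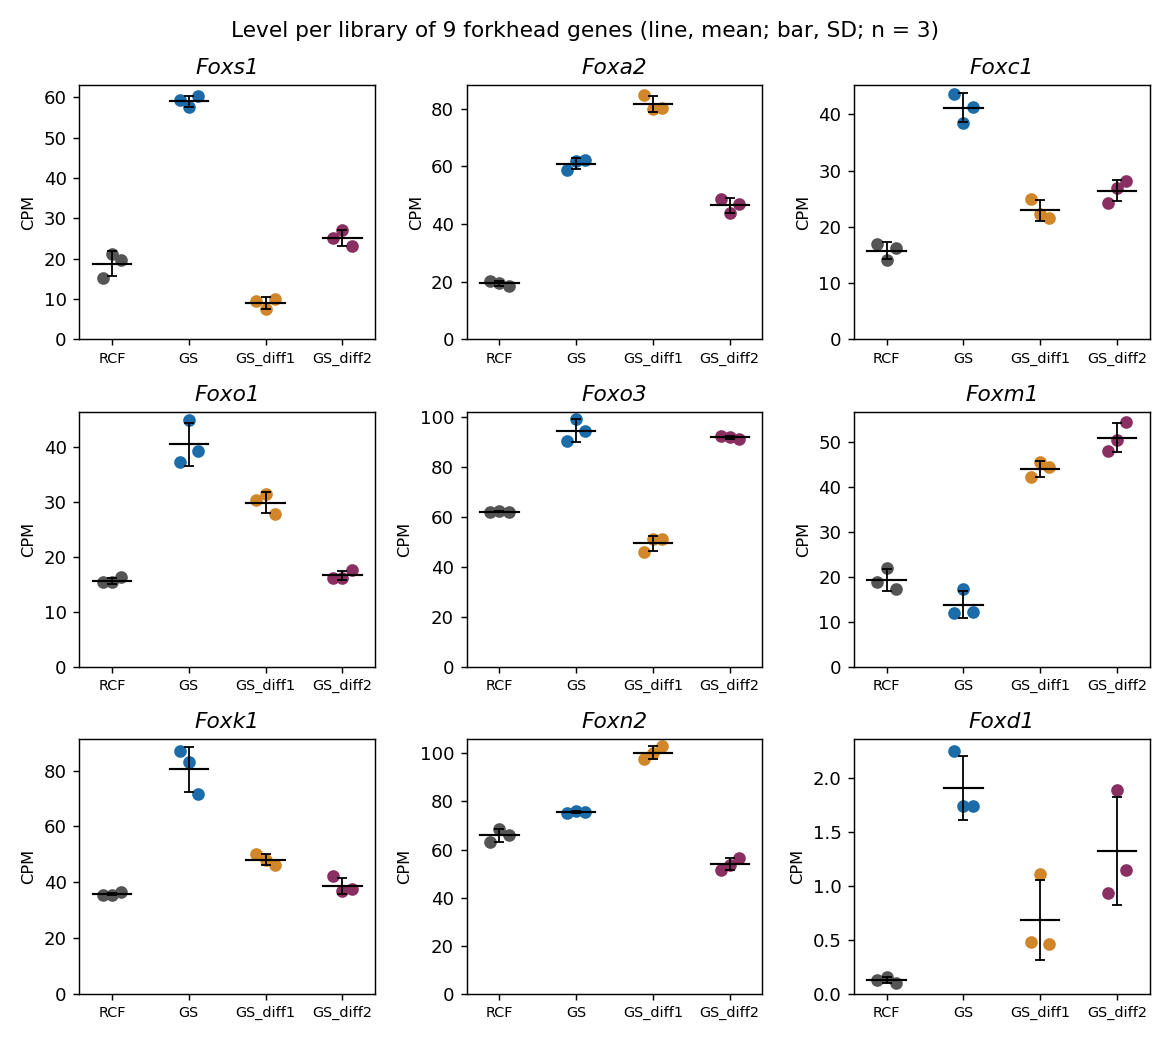
CPM of 9 members in each library (points), with the mean (line) and SD (bar, n = 3) of each group; vertical scales start at 0 and differ between panels. Foxs1, Foxc1, Foxo1, Foxk1 and Foxd1 peak in GS, Foxa2 and Foxn2 in GS_diff1, and Foxm1 in GS_diff2.

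Of 23 genes listed for FOXC and FOXF in mesenchyme and vessels, 18 were tested. From RCF to GS 12 were higher and 5 lower (median log2 0.9), beside 35% and 36.3% of all tested genes. In GS_diff1 against GS 7 were higher and 8 lower (-0.06), beside 32% and 32.3%. In GS_diff2 against GS 5 were higher and 11 lower (-0.95), beside 33.3% and 33.7%. Pdgfra, a receptor of mesenchymal progenitors, was at 97.4 ± 5.17, 687.7 ± 31.8, 437.4 ± 4.33 and 463.4 ± 2.46 CPM in RCF, GS, GS_diff1 and GS_diff2 and thus highest in GS. Pdgfrb, the receptor of pericytes and fibroblasts, was at 905.2 ± 11.3, 1097 ± 10.6, 208.1 ± 2.05 and 91.4 ± 3.22 CPM in that order. Snai2, a factor of mesenchymal transition, was at 8.77 ± 0.459, 67.7 ± 4.28, 75.7 ± 3.6 and 18.9 ± 1.93 CPM. Cxcl12, a stromal chemokine, had another order, at 653.8 ± 5.11, 53.6 ± 0.874, 3.77 ± 0.928 and 62.1 ± 3.08 CPM. Acta2, smooth muscle actin, went from 88.4 ± 4.83 CPM in GS to 961 ± 13.7 in GS_diff1 and 9.85 ± 1.3 in GS_diff2. The list therefore held members of both directions in each of these comparisons.

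Hedgehog signals act upstream of FOXF and FOXL1, and of 15 listed genes 13 were tested. From RCF to GS 7 were higher and 5 lower, beside 35% and 36.3% of all tested genes. Gli1, a hedgehog effector and target, went from 0.105 ± 0.0964 CPM in RCF to 5.6 ± 0.522 in GS (log2 5.61 ± 0.377, adjusted p = 4.39e-14). Ptch1, the receptor and also a target, went from 10.1 ± 1.38 CPM in RCF to 34.3 ± 2.46 in GS (log2 1.76 ± 0.0891, adjusted p = 4.25e-17). Boc, a coreceptor, was also higher in GS (log2 2.29 ± 0.0712, adjusted p = 1.84e-22), and Gas1, another coreceptor, was lower (log2 -0.52 ± 0.0549, adjusted p = 2.47e-09). The remaining genes called lower were Smo (log2 -0.92), Gli2 (-0.79), Kif7 (-1.21) and Sufu (-0.48). Ihh, Dhh, Gli3 and Cdon were the remaining ones called higher. Foxf1 and Foxl1 were at the low counts given above. In GS_diff1 against GS 5 of the 13 were higher and 5 lower, beside 32% and 32.3% of all tested genes. In GS_diff2 against GS 3 were higher and 5 lower, beside 33.3% and 33.7%.

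FOXO factors carry out the transcriptional response to low insulin and AKT signalling. Foxo1 was at 15.3, 15.3 and 16.2 CPM in RCF, 37.2, 44.8 and 39.3 in GS, 30.3, 31.4 and 27.6 in GS_diff1 and 16.2, 16.1 and 17.6 in GS_diff2. Foxo1 was lowest in RCF and GS_diff2, which overlapped, highest in GS, and between them in GS_diff1. It was 2.58-fold higher in GS than in RCF (log2 1.37 ± 0.0847, adjusted p = 5.96e-15), and fell in GS_diff1 (log2 -0.44 ± 0.0814, adjusted p = 2.7e-05) and in GS_diff2 (log2 -1.28 ± 0.0845, adjusted p = 3.31e-14). Foxo3 was at 62.1, 62.4 and 61.9 CPM in RCF, 90.3, 99.3 and 94.2 in GS, 45.7, 51.1 and 51.2 in GS_diff1 and 92.6, 91.9 and 91.3 in GS_diff2. Foxo3, per kilobase the most abundant FOXO member in each of the 4 groups, was 1.52-fold higher in GS than in RCF (log2 0.61 ± 0.0507, adjusted p = 7.01e-12). It fell 1.92-fold in GS_diff1 (log2 -0.94 ± 0.0519, adjusted p = 5.47e-16), while GS_diff2 overlapped GS (log2 -0.04 ± 0.0497, adjusted p = 0.493). Foxo1 and Foxo3 thus stood in opposite orders between the media: Foxo1 was lower in GS_diff2 than in GS_diff1 (log2 -0.85 ± 0.085, adjusted p = 4.99e-10) and Foxo3 was higher (log2 0.9 ± 0.0517, adjusted p = 1.39e-15).

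Foxo4 was at 38.5, 37.8 and 37.7 CPM in RCF, 32.7, 36.6 and 35 in GS, 28.7, 31.2 and 32.5 in GS_diff1 and 32.7, 34.5 and 39.6 in GS_diff2. Foxo4 varied least of these, and GS was not called against RCF (adjusted p = 0.121), although their libraries did not overlap and library totals alone gave a call (log2 -0.23, adjusted p = 0.00729). Its lower level in GS_diff1 than in GS (log2 -0.18, adjusted p = 0.0436) was lost without GS replicate 2 or 3 or GS_diff1 replicate 1 or 2, with adjusted p from 0.0817 to 0.189, and also with DESeq2, no filter, a fit to these 2 groups alone or library totals (0.0553 to 0.19). Its higher level in GS_diff2 than in GS_diff1 (adjusted p = 0.0155) was lost without GS_diff1 replicate 1 (0.0907) or GS_diff2 replicate 3 (0.169). Foxo6, the brain member, had 11, 2 and 13 counts in RCF, 0, 0 and 1 in GS, 5, 0 and 0 in GS_diff1 and 5, 3 and 0 in GS_diff2, and was not tested.

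Of 32 genes listed as FoxO targets, 27 were tested. In GS against RCF 13 were higher and 12 lower (median log2 0.16), in GS_diff1 against GS 3 were higher and 20 lower (-0.84), and in GS_diff2 against GS 6 were higher and 17 lower (-0.64). The median of all tested genes was -0.03, 0 and 0 in these comparisons. Of all tested genes 35% were higher and 36.3% lower in the first, 32% and 32.3% in the second, and 33.3% and 33.7% in the third. Sod2, the mitochondrial superoxide dismutase, was at 664.6 ± 6.49, 310.9 ± 4.43, 66.6 ± 3.99 and 157.4 ± 3.42 CPM in RCF, GS, GS_diff1 and GS_diff2. Txnip, an inhibitor of glucose uptake, was at 503.4 ± 2.58, 674.5 ± 8.88, 159.1 ± 6.17 and 259.9 ± 3.68 CPM. Both fell from GS to either medium, and both were lower in GS_diff1 than in GS_diff2.

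Gadd45a, a growth arrest gene, fell from 424.5 ± 1.75 CPM in GS to 115 ± 10.1 in GS_diff1 and 80.7 ± 3.15 in GS_diff2. Cdkn1b, the inhibitor of cyclin-dependent kinases p27, was at 60.8 ± 1.76, 128.6 ± 5.53, 69.8 ± 4.41 and 81.4 ± 1.41 CPM in RCF, GS, GS_diff1 and GS_diff2. Ccng2, another growth arrest gene, went from 36.1 ± 1.72 CPM in GS to 17.8 ± 1.14 in GS_diff1 and 77.8 ± 1.81 in GS_diff2, so that it was called in opposite directions under the media. Trim63, the muscle ubiquitin ligase MuRF1, went from 2.04 ± 0.722 CPM in GS to 0.0713 ± 0.0387 in GS_diff1 and 0.101 ± 0.056 in GS_diff2. Pik3ip1, an inhibitor of PI3K, fell from 168 ± 0.923 CPM in RCF to 26 ± 2.83 in GS, against the direction of Foxo1 and Foxo3.

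The regulators of FOXO proteins changed in several directions, with 30 of 30 listed genes tested. In GS against RCF 14 were higher and 9 lower, beside 35% and 36.3% of all tested genes. In GS_diff1 against GS 17 were higher and 9 lower, beside 32% and 32.3%. In GS_diff2 against GS 13 were higher and 8 lower, beside 33.3% and 33.7%. Igf1, an activating ligand, went from 276.8 ± 8.83 CPM in RCF to 13.5 ± 1.95 in GS (log2 -4.34 ± 0.0684, adjusted p = 3e-28). Igf2, the other ligand, was at 0.395 ± 0.204, 1.56 ± 0.204, 14.8 ± 0.17 and 91.3 ± 1.65 CPM in RCF, GS, GS_diff1 and GS_diff2. Of the kinases, Akt1 was at 269 ± 4.67, 211.3 ± 7.77, 278.6 ± 2.26 and 305.7 ± 7.46 CPM. Sgk1, a kinase that also phosphorylates FOXO proteins, rose from 41.6 ± 0.423 CPM in GS to 222.2 ± 3.48 in GS_diff2 (log2 2.42 ± 0.0501, adjusted p = 8.1e-27) and fell to 29.2 ± 1.29 in GS_diff1. RNA levels do not show where FOXO proteins were in the cell.

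Foxm1, the factor of the G2 and M phases, was the member that rose most in both media among those above 10 CPM. Foxm1 was at 18.8, 22 and 17.3 CPM in RCF, 11.9, 17.2 and 12.2 in GS, 42.1, 45.6 and 44.5 in GS_diff1 and 48, 50.5 and 54.5 in GS_diff2. Every differentiated library was above every RCF library, and every GS library was below every RCF library. In GS it was 1.41-fold lower than in RCF (log2 -0.49 ± 0.119, adjusted p = 0.0013). It rose 3.21-fold in GS_diff1 (log2 1.68 ± 0.115, adjusted p = 2.68e-10) and 3.71-fold in GS_diff2 (log2 1.89 ± 0.115, adjusted p = 3.74e-11). The media were not called apart (log2 0.21 ± 0.104, adjusted p = 0.0866) although their libraries did not overlap, and limma-voom called them (adjusted p = 0.0105), as did a replicate block (0.0356) and a fit to these 2 groups alone (0.00694).

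Listed genes of mitosis, counted among the targets of FOXM1, rose under both media, as Foxm1 did. The part of FOXM1 or of dividing cells in their levels was not tested. Of 25 listed mitotic genes 23 were in the table, and all 23 were tested. In GS_diff1 against GS 23 were higher and 0 lower (median log2 1.52), beside 32% and 32.3% of all tested genes. In GS_diff2 against GS 23 were higher and 0 lower (2.13), beside 33.3% and 33.7%. Against RCF, in GS 8 were higher and 13 lower (-0.21), beside 35% and 36.3%. In GS_diff2 against GS_diff1 15 were higher and 5 lower (0.42), beside 32.1% and 31.5%. Cenpa, the centromere histone, was at 11.4 ± 1.63, 3.78 ± 1, 24.6 ± 2.2 and 33 ± 1.42 CPM in RCF, GS, GS_diff1 and GS_diff2, in the order of Foxm1. Birc5, survivin, was at 13.3 ± 2.27, 9.55 ± 0.998, 43.6 ± 0.779 and 60.3 ± 1.94 CPM. Kif20a, a kinesin of the midzone, was at 66.2 ± 1.38, 31.8 ± 1.79, 115.7 ± 2.31 and 265.9 ± 6.04 CPM.

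Ccna2, cyclin A, was at 33.2 ± 1.35, 27.9 ± 0.218, 112.1 ± 7.06 and 127.6 ± 5.09 CPM in RCF, GS, GS_diff1 and GS_diff2. Cdkn3, a mitotic phosphatase, went from 14.6 ± 1.89 CPM in GS to 36.2 ± 0.7 in GS_diff1 and 137.2 ± 1.9 in GS_diff2. Skp2, a ubiquitin ligase subunit, had another order, at 9.02 ± 1.43, 16.4 ± 1.96, 47 ± 2.25 and 21.3 ± 2.09 CPM. It was higher in GS than in RCF (log2 0.86 ± 0.112, adjusted p = 8.85e-08) and lower in GS_diff2 than in GS_diff1 (log2 -1.14 ± 0.0999, adjusted p = 6.05e-11).

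**Figure D5:**
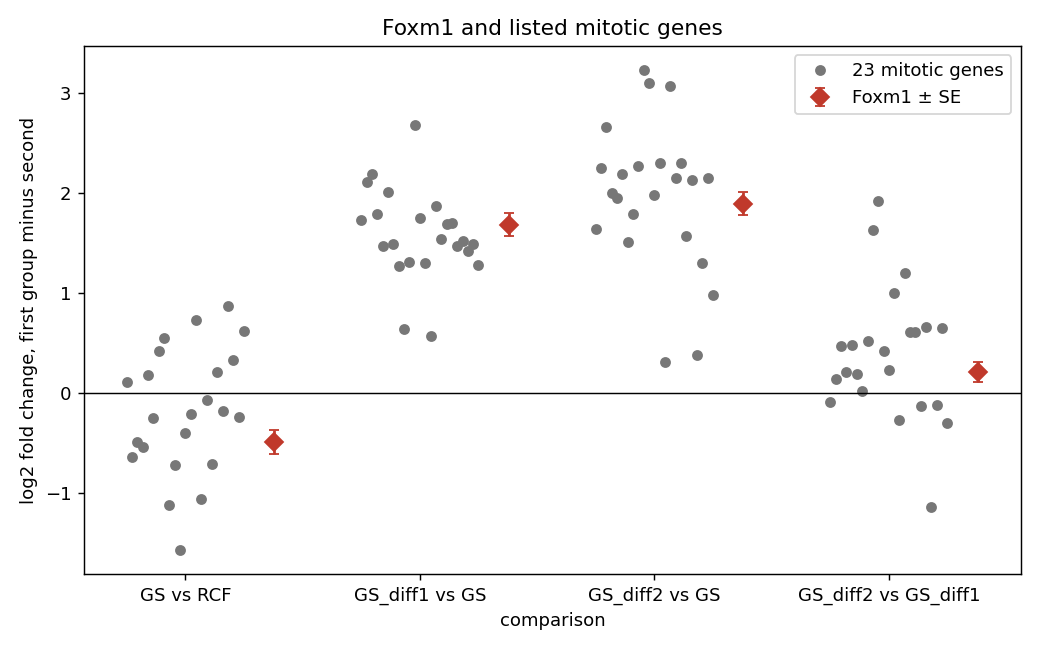
Log2 fold changes of Foxm1 (diamond; bar, SE) and of the 23 listed mitotic genes (grey points) in the 4 comparisons. All 23 grey points lie above 0 in GS_diff1 vs GS and in GS_diff2 vs GS, where Foxm1 lies at 1.68 and 1.89, and on both sides of 0 in the other comparisons.

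The MuvB complex and B-Myb recruit FOXM1 to these genes, and the CHR is the element that MuvB binds. Mybl2, B-Myb, was at 15.3 ± 1.15, 27.3 ± 1.62, 103.9 ± 5.92 and 87.8 ± 4.96 CPM in RCF, GS, GS_diff1 and GS_diff2. Lin9, a MuvB subunit, was at 4.06 ± 1.13, 6.77 ± 0.326, 13.8 ± 2.35 and 9.36 ± 0.662 CPM, and its call in GS_diff2 against GS (adjusted p = 0.018) was lost without GS replicate 2 (0.0554) or GS_diff2 replicate 2 (0.0673). Both were higher in GS than in RCF (log2 0.84 ± 0.0731, adjusted p = 1.73e-11 for Mybl2 and log2 0.74 ± 0.178, adjusted p = 0.000534 for Lin9), where Foxm1 was lower. Rbl2, the pocket protein of the repressive form, was at 56.7 ± 0.461, 32.5 ± 2.91, 18.1 ± 1.94 and 34.5 ± 0.697 CPM in RCF, GS, GS_diff1 and GS_diff2. Of 14 listed partners, 6 were higher and 3 lower in GS against RCF, beside 35% and 36.3% of all tested genes. In GS_diff1 against GS 6 were higher and 1 lower, beside 32% and 32.3%. In GS_diff2 against GS 7 were higher and 1 lower, beside 33.3% and 33.7%.

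A CHR was found in 11 of 22 RefSeq promoter entries of the mitotic genes (50%), beside 16.2% of all entries. Those of Cenpa and Birc5, show where it lies. Cenpa, at chr6:31431553-31431802 on the minus strand, holds it 116 bases before the start, and Birc5, at chr10:103571896-103572145 on the plus strand, holds it 8 bases before the start.
Cenpa: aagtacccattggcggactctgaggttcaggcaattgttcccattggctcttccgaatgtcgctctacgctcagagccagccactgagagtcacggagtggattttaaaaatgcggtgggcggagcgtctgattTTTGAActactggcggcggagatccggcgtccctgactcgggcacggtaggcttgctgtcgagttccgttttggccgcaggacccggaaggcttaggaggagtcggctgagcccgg
Birc5: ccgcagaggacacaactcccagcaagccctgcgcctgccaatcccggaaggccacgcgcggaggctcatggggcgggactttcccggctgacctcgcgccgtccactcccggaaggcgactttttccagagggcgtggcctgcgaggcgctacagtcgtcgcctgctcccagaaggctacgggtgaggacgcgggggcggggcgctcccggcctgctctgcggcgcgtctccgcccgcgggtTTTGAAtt
Among members with an entry, the CHR was in Foxp3 only, and the forkhead motif was in 1 of the 22 mitotic entries, that of Top2a (4.55%).

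FOXK1 and FOXK2 repress genes of autophagy and steer glucose use, and FOXJ2 and FOXJ3 are broadly expressed relatives, FOXJ3 with a role in muscle fibre identity. Foxk1 was at 35.4, 35.5 and 36.3 CPM in RCF, 87.1, 83 and 71.5 in GS, 50.3, 47.8 and 46.3 in GS_diff1 and 42.1, 36.8 and 37.5 in GS_diff2. Foxk1 was 2.26-fold higher in GS than in RCF (log2 1.17 ± 0.0674, adjusted p = 9.7e-16) and fell in GS_diff1 (log2 -0.74 ± 0.0664, adjusted p = 3.87e-11) and GS_diff2 (log2 -1.06 ± 0.0672, adjusted p = 1.39e-14). The RCF libraries lay below every other library. Foxk1 overlaps the gene AABR07035428.1 on the same strand, so some reads of either row may belong to the other. Foxk2 was at 105, 111 and 105 CPM in RCF, 107, 102 and 102 in GS, 138, 134 and 141 in GS_diff1 and 110.5, 104 and 104 in GS_diff2. For Foxk2, its close relative, GS overlapped RCF (adjusted p = 0.335, with library totals alone 0.00259) and GS_diff1 was above all other groups (log2 0.41 ± 0.0409, adjusted p = 4.42e-10). GS_diff2 was not called against GS (adjusted p = 0.425, with library totals alone 0.0101).

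Foxj3 was at 82.2, 81.3 and 79.2 CPM in RCF, 119.6, 115 and 114 in GS, 82.1, 77.7 and 79.8 in GS_diff1 and 55.1, 57.6 and 60.7 in GS_diff2. Foxj3 was higher in GS than in RCF (log2 0.53 ± 0.0456, adjusted p = 1.67e-11), while RCF and GS_diff1 overlapped. It fell in GS_diff1 (log2 -0.54 ± 0.0459, adjusted p = 1.19e-11) and 2.01-fold in GS_diff2 (log2 -1.01 ± 0.0468, adjusted p = 6.2e-18). Rps27a-ps1 lies within Foxj3 on the opposite strand, and whether strand was used in counting is not given. Foxj2 was at 60.1, 57.7 and 54.9 CPM in RCF, 64.8, 68.8 and 62.8 in GS, 67.3, 56.9 and 66.1 in GS_diff1 and 69.2, 76.3 and 69.8 in GS_diff2. Foxj2 differed by at most 1.14-fold in any of the 4 comparisons. Its higher level in GS than in RCF (adjusted p = 0.0086) was lost without RCF replicate 3 (0.0545) and with library totals alone (0.213). Its higher level in GS_diff2 than in GS_diff1 (adjusted p = 0.0113) was lost without GS_diff1 replicate 2 (0.184) or GS_diff2 replicate 2 (0.0929).

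FOXN3 is a repressor tied to cell cycle checkpoints, and FOXN2 is its close relative. Foxn2 was at 63.2, 68.5 and 65.9 CPM in RCF, 75.4, 76.1 and 75.7 in GS, 97.7, 100.1 and 103 in GS_diff1 and 51.4, 53.6 and 56.4 in GS_diff2. Foxn2 was highest in GS_diff1 and lowest in GS_diff2, with no overlap between groups. It rose in GS_diff1 (log2 0.41 ± 0.0487, adjusted p = 1.7e-08) and fell in GS_diff2 (log2 -0.49 ± 0.0503, adjusted p = 6.26e-10), and its smaller rise from RCF to GS (log2 0.2, adjusted p = 0.000624) was lost with library totals alone (0.0648). Foxn3 was at 43.4, 43.8 and 40.8 CPM in RCF, 30.4, 36.5 and 34.6 in GS, 28.6, 22.2 and 23.5 in GS_diff1 and 17.3, 18.2 and 17.2 in GS_diff2. Foxn3 was highest in RCF and lower at each step to GS, GS_diff1 and GS_diff2. It was lower in GS than in RCF (log2 -0.34 ± 0.084, adjusted p = 0.00073), in GS_diff1 than in GS (log2 -0.44 ± 0.0868, adjusted p = 5.06e-05) and, 1.92-fold, in GS_diff2 than in GS (log2 -0.94 ± 0.0888, adjusted p = 1.13e-10). Of the other relatives, Foxn1, the thymus factor, had 0 counts in RCF and GS and 1 to 13 counts in each differentiated library. Foxn4, a factor of retina and spinal cord, had 0 counts in RCF and up to 6 in the others.

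FOXP factors are repressors that bind DNA as dimers. Foxp1 was at 50.3, 47.7 and 51.6 CPM in RCF, 72, 77.4 and 72.3 in GS, 69.2, 63.3 and 64.2 in GS_diff1 and 84, 78.1 and 88.2 in GS_diff2. The 4 groups did not overlap, with RCF lowest and GS_diff2 highest. Foxp1 was 1.48-fold higher in GS than in RCF (log2 0.57 ± 0.0561, adjusted p = 2.76e-10). The steps from GS were small: down in GS_diff1 (log2 -0.17, adjusted p = 0.00816) and up in GS_diff2 (log2 0.17, adjusted p = 0.00604). The first was lost without GS replicate 2 (0.0671), without GS_diff1 replicate 2 (0.0634) and with library totals alone (0.0839), and the second without GS_diff2 replicate 3 (0.0556). Foxp4 was at 47.5, 49.6 and 46.9 CPM in RCF, 87.3, 80.1 and 87 in GS, 122, 122 and 126 in GS_diff1 and 85.4, 84.1 and 82.5 in GS_diff2. Foxp4 was 1.77-fold higher in GS than in RCF (log2 0.82 ± 0.0475, adjusted p = 1.14e-15) and rose further in GS_diff1 (log2 0.54 ± 0.0452, adjusted p = 1.02e-11), while GS_diff2 overlapped GS (adjusted p = 0.81).

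Foxp2 was at 1.52, 1.23 and 2.32 CPM in RCF, 2.43, 2.78 and 1.93 in GS, 1.28, 1.36 and 0.348 in GS_diff1 and 0.57, 1.23 and 0.575 in GS_diff2. Foxp2, a factor of brain and lung, was lower in GS_diff1 (log2 -1.23 ± 0.411, adjusted p = 0.0101) and in GS_diff2 (log2 -1.57 ± 0.419, adjusted p = 0.0016) than in GS. It rests on 131 counts in GS, 60 in GS_diff1 and 50 in GS_diff2, and the call in GS_diff1 was lost without GS_diff1 replicate 3 (adjusted p = 0.0764). Foxp3 was at 0.549, 0.719 and 0.142 CPM in RCF, 0.183, 0.347 and 0.322 in GS, 0.333, 0.302 and 0.406 in GS_diff1 and 0.882, 0.745 and 0.47 in GS_diff2. Foxp3, the factor of regulatory T cells, was not called in any comparison. In GS_diff2 against GS it was called higher with library totals alone (adjusted p = 0.0437) and without GS_diff2 replicate 3 (0.0482). It overlaps Ccdc22 on the opposite strand, and the T cell marker Cd3e was at 0 in RCF, GS and GS_diff2. Of 17 listed partners of FOXP and FOXK, 13 were tested. In GS against RCF 5 were higher and 6 lower, beside 35% and 36.3% of all tested genes. Among the higher were Ctbp2, a corepressor (log2 0.88 ± 0.059, adjusted p = 4.13e-14), and Srf, the muscle and cytoskeleton factor that FOXK1 counteracts (log2 0.85 ± 0.0464, adjusted p = 2.68e-16). Dvl3, a Wnt mediator that FOXK proteins carry into the nucleus, was lower (log2 -0.77 ± 0.0389, adjusted p = 4.36e-17).

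The other members stayed at a few counts. The highest total of an untested member was 79 counts over the 12 libraries, for Foxl2, a factor of the ovary, of which 22 were in GS_diff2 replicate 3. Foxh1, the partner of SMAD proteins in nodal signalling, had 0 counts in RCF and GS_diff2, 0, 1 and 9 in GS and 8, 1 and 1 in GS_diff1. It overlaps Kifc2 on the opposite strand, which was at 1.96 to 6.95 CPM by group mean. Of 17 listed nodal pathway genes 11 were tested, with 8 higher and 1 lower in GS than in RCF, beside 35% and 36.3% of all tested genes. Eomes, a factor of mesoderm and endoderm, went from 0.0862 ± 0.111 CPM in RCF to 5.82 ± 1.3 in GS (log2 5.88 ± 0.374, adjusted p = 8.79e-14).

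Foxe1, a thyroid factor, had 35 counts in all, 12 of them in GS replicate 3. Foxb2 had 13, 11 of them in GS replicate 1, and Foxe3 and Foxr2 had 2 each. No row carries the name Foxj1, the master factor of motile cilia, and a pseudogene row described as FOXJ1 had 18 counts over the 12 libraries. Of 25 genes listed as downstream of FOXJ1, 12 were tested, with 3 higher and 4 lower in GS than in RCF, beside 35% and 36.3% of all tested genes. Rfx2, a ciliary factor, went from 4.99 ± 0.641 CPM in RCF to 0.467 ± 0.159 in GS (log2 -3.38 ± 0.348, adjusted p = 6.43e-10), and Cfap43, a part of motile cilia, went from 0.816 ± 0.349 to 4.81 ± 0.61 CPM (log2 2.54 ± 0.335, adjusted p = 8.27e-08).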

How the data were processed

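RNA from 12 cultures was purified with the RNeasy kit, and per the labels' protocols the Ovation RNA-seq System v2 was used for libraries. Values are raw read counts by gene, as deposited by the authors, beside gene names, types and positions. The submitters' processing notes name Bowtie 0.12.2 and, with no role for either, the builds mm8 and Rnor_6.0. The table's rat positions are given as deposited, taken to be Rnor_6.0. No source used here gives the counting program, annotation release or use of strand, so reads of overlapping genes and of the viral and endogenous Sall4 and Gata4 cannot be separated.

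Groups came from the sample titles. The members and the 10 gene lists (222 symbols, 213 found in the table) were chosen with earlier results of these data known. Named with values in every library were members called at 2-fold or more with at least 1 CPM, members of set subfamilies and, from each list, up to 4 called genes with the largest change per comparison besides a few fixed ones; other genes are named where a count or a position turns on them.

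Counts were fitted in edgeR 4.0.16 (R 4.3.3, limma 3.58.1) with TMM factors and filterByExpr, which kept 14399 genes, as 1 quasi-likelihood model of the 4 groups over all 12 libraries (8 residual degrees of freedom, biological variation of 9.72%). Contrasts were two-sided, and p-values were adjusted by Benjamini-Hochberg over these 14399 genes. The scripts were tested on simulated data. CPM are TMM-scaled, and CPM per kilobase divide by the table's gene length. Floors of 3 counts per library and counting intervals (95%, exact binomial) cover counting error only. Replicates within a group differed by 4.44 to 7.57 times the chi-square per degree of freedom that sampling gives. Titles share replicate numbers, but same-numbered libraries of different groups did not deviate together (correlations from -0.045 to 0.0759, 0 of 18 above 0.1), so the numbers were not taken as pairs. Alternatives were RLE factors, library totals, 2 other filters, DESeq2 1.42.0, limma-voom, a replicate block, 2-group fits and leaving out each library. Promoters came from RefSeq (GRCr8), matched by symbol. Values of 1 untested member and of some listed genes are not reported here.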

Additional observations from a re-analysis of the deposited data

Results flagged for a closer look

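For 3 members the call against GS had opposite signs under the 2 media, and the difference between the media was itself called by edgeR's quasi-likelihood test. Foxa2 was higher in GS_diff1 (log2 0.42) and lower in GS_diff2 (log2 -0.39), a difference of -0.81 ± 0.0575 (SE, adjusted p = 1.96e-13). Foxn2 was higher in GS_diff1 (log2 0.41) and lower in GS_diff2 (log2 -0.49), a difference of -0.9 ± 0.0495 (adjusted p = 5.05e-16). Foxp1 was lower in GS_diff1 (log2 -0.17) and higher in GS_diff2 (log2 0.17), a difference of 0.35 ± 0.0547 (adjusted p = 2.38e-06). In each of these genes no library of one medium overlapped those of the other or of GS. For Foxp1 the lower level in GS_diff1 was lost without GS replicate 2 (adjusted p = 0.0671), without GS_diff1 replicate 2 (0.0634) or with library totals alone (0.0839), and the higher level in GS_diff2 without GS_diff2 replicate 3 (0.0556), by edgeR. The difference between the media was called under all 14 alternatives run for it.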

How the results depend on the processing

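Scaling by library totals moved some counts of members: in GS against RCF 5 members were called lower rather than 3, and in GS_diff2 against GS 7 were called higher rather than 4. Leaving out 1 library at a time gave 14 to 16 higher and 2 to 3 lower members in GS against RCF, 5 to 6 and 10 to 12 in GS_diff1 against GS, 4 to 5 and 9 in GS_diff2 against GS, and 6 to 9 and 8 between the media. DESeq2 gave 15 and 3, 5 and 11, 4 and 9, and 8 and 8, in the same order of comparisons.

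Some log2 differences that were not called changed sign. With library totals, Foxj2 (0.02) and AABR07054126.1 (0.02) did so in GS_diff1 against GS and Foxp4 (0.07) and Foxo3 (0.04) in GS_diff2 against GS, and with limma-voom Foxf1 (0.13) did between the media. Over the fits without 1 library, values in GS_diff1 against GS ran from -0.09 to 0.04 for Foxj2, -2.21 to 0.08 for Foxf1, -0.08 to 0.02 for AABR07054126.1 and -0.3 to 0.13 for AABR07049695.2. In GS_diff2 against GS they ran from -0.05 to 0.01 for Foxp4 and -0.05 to 0.09 for Foxo4, and between the media from -0.67 to 0.17 for Foxa3 and -1.25 to 0.92 for Foxf1. The cause was not tested.

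With the replicate number as a block, 15 members were higher and 2 lower in GS against RCF (Foxf1 lost), 6 and 12 in GS_diff1 against GS, 4 and 9 in GS_diff2 against GS, and 10 and 8 between the media (Foxm1 gained). The correlations between same-numbered libraries did not show the numbers to mark pairs, but cannot exclude it, and no source says that they do. Foxf1, Foxd1, Foxb1, Foxa3 and Foxp2 rest on few counts, and the 16 members that the filter left out had no test.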

Other observations

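Genes beside 3 members were chosen for description after their values were seen. The long intergenic RNA AABR07054126.1, 63895 bases from Foxa2 at chr3:142280345-142319383, was at 0.128 ± 0.067, 11.7 ± 0.653, 11.3 ± 0.821 and 4.09 ± 0.23 CPM in RCF, GS, GS_diff1 and GS_diff2 (SD, n = 3). AABR07054126.1 was higher in GS than in RCF (edgeR, log2 6.48 ± 0.258, adjusted p = 1.02e-19), as Foxa2 was. Between GS and GS_diff1, where Foxa2 rose, AABR07054126.1 was not called (adjusted p = 0.838). In GS_diff2 both were lower than in GS, AABR07054126.1 by a log2 difference of -1.51 ± 0.169 (adjusted p = 3.83e-09).

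The long intergenic RNA AABR07049695.2, which begins 438 bases from Foxd2 on the opposite strand, was at 1.74 ± 0.285, 2.15 ± 0.507, 1.98 ± 0.649 and 6.92 ± 0.864 CPM in RCF, GS, GS_diff1 and GS_diff2. The rise of AABR07049695.2 in GS_diff2 against GS was called (log2 1.68 ± 0.265, adjusted p = 1.94e-06), whereas Foxd2 was not called there (adjusted p = 0.417). Between the media both were higher in GS_diff2, AABR07049695.2 by log2 1.81 ± 0.266 (adjusted p = 6.82e-07) and Foxd2 by log2 1.13 ± 0.258 (adjusted p = 0.00034). In GS against RCF and in GS_diff1 against GS, Foxd2 was called and AABR07049695.2 was not (adjusted p = 0.335 and 0.713). The entry AABR07045405.1, of 234 bases and 287 bases after the end of Foxo3 on the same strand, was at 8.79 ± 1.22, 14.6 ± 1.71, 6.78 ± 0.56 and 12.7 ± 0.355 CPM in the same order. In each of the 4 comparisons its call was in the direction of that of Foxo3 or both were not called. Whether it is part of the Foxo3 transcript was not tested.

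Besides the entries for FOXQ1 and FOXJ1, 4 entries of the table outside the naming rule carry a forkhead name in their description. Those for FOXB2 and FOXD4 had 7 counts and 1 count over all libraries, and those for FOXL3 and FOXF1, the latter typed as a miRNA, had 0.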
